A study of Mus musculus with 2 samples.

Results

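The 10 genes described here are regulators of the primitive streak and of mesendoderm, the common precursor of mesoderm and endoderm. They were chosen by name (T, Eomes, Mixl1, Gsc, Foxa2, Mesp1, Evx1, Cer1, Lhx1 and Hhex), and each was found once among the 18032 genes listed. Polyadenylated RNA was sequenced from wild-type mouse cells in 2 states, with 1 library for each. For mESC the source was E14TG2a, a single established line of embryonic stem cells, kept in 2iLIF: serum-free N2B27 medium containing PD0325901 at 1 µM against FGF and ERK signalling, CHIR99021 at 3 µM against GSK3, and LIF at 100 units/ml. For cEpiSC the source was epiblast stem cells made in vitro from 2iLIF cultures. Those cells were seeded on fibronectin, held in 2iLIF for 24 h, and then given N2B27 with activin A (20 ng/ml) and FGF2 (12 ng/ml) for 2 days, a medium for which the labels list neither the inhibitors nor LIF. With 1 library per state there is no replicate check and no p-value, and medium and state cannot be told apart. In bulk RNA, fewer expressing cells and less RNA per cell cannot be told apart either.

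The primitive streak is the site on the posterior side of the gastrulating embryo where epiblast cells leave the epithelium to form mesoderm and endoderm. Its genes answer to Nodal, Wnt and BMP signals: Nodal and activin act through SMAD2 and SMAD3 with FOXH1, and canonical Wnt signals act through beta-catenin and TCF/LEF factors. T (Brachyury), Mixl1, Evx1 and Mesp1 are known from the streak and nascent mesoderm, whereas Gsc, Foxa2, Lhx1, Cer1 and Hhex are known from the anterior streak, its endoderm or the anterior visceral endoderm. Eomes acts in both mesoderm and endoderm, and also in trophoblast. Primed pluripotent cells of the mouse are widely reported to express some of these genes at low level in part of the culture.

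Promoter sequence was matched in the RefSeq table of GRCm38.p6 for 9 of the 10 genes, all but Mixl1. The 250 bases before the start are shown for the 4 most abundant matched genes, Gsc and T, which were lower in cEpiSC, and Eomes and Hhex, which were within 2-fold, with each CG dinucleotide in capitals. The start is the one used for the promoter windows, and for Eomes it lies a few bases inside the gene span given below. The windows are chr12:104473237-104473486 on the minus strand for Gsc, chr17:8434173-8434422 on the plus strand for T, chr9:118477939-118478188 on the plus strand for Eomes and chr19:37434591-37434840 on the plus strand for Hhex, each printed 5′ to 3′.
Gsc: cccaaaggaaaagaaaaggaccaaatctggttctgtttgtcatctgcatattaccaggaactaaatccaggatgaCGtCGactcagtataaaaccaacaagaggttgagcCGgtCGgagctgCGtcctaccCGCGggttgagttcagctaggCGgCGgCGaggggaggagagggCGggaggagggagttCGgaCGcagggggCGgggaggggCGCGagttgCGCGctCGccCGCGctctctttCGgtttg
T: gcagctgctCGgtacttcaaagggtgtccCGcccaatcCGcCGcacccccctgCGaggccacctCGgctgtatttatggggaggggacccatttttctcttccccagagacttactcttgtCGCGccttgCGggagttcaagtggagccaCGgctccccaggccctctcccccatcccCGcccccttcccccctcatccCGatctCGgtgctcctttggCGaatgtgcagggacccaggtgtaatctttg
Eomes: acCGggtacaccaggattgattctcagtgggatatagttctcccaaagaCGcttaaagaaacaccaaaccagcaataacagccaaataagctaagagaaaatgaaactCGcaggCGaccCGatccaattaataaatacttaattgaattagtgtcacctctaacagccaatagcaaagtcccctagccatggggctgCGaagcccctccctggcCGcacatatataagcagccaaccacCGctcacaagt
Hhex: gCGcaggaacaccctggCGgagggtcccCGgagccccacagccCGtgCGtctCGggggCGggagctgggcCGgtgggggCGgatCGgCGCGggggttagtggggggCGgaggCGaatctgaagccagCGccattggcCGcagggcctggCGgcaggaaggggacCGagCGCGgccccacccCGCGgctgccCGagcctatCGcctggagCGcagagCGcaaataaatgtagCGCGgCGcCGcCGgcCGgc

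The Gsc window held 22 CG dinucleotides, T 14, Eomes 8 and Hhex 32, against a median of 6 over 32851 windows of the table. Thus the pair within 2-fold held both the lowest and the highest count of the 4. GC content was lowest in the Eomes window, at 46.4%, against 59.2% for Gsc, 62.8% for T and 76.0% for Hhex.

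The letters of 4 motifs were searched on both strands of windows of 300 bases, which reach 50 bases past the start. They were CTTTGAT (TCF/LEF), AATCCAC (FOXH1), CAGACA (SMAD) and TCACACC (T-box), found in 3.73%, 2.49%, 21.0% and 3.98% of all windows. None of them lay in the windows of Gsc, T, Eomes or Hhex. Mesp1 held CTTTGAT 31 bases before the start and TCACACC in the transcribed part, Cer1 and Evx1 each held CAGACA, and 1 of the Foxa2 windows held CTTTGAT past the start. The shorter TCF/LEF core CTTTGA, which overlaps the longer motif and was added after the sequences were seen, is in 16.0% of windows. It occurred in the T window, on the reverse strand 234 bases before the start, where it reads tcaaag in the sequence above.

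Depth was alike, at 19843719 estimated counts in mESC and 19956733 in cEpiSC. CPM below is the count scaled to library size with edgeR's TMM factors, and a count of 0 is set against a floor of 3 counts, 0.155 CPM in mESC and 0.147 CPM in cEpiSC. All 10 genes had whole-number counts, with none of the fractional values that arise where reads are divided among similar loci. Of 11 markers of the naive state 7 were at least 2-fold lower in cEpiSC and none higher, and 8 of 9 markers of the primed state were higher and none lower. Of all genes at 1 CPM or more, 9.25% were lower and 13.6% higher. Both marker lists were chosen with earlier results of these data known, so they are no independent check of the labels.

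Of the 10 genes, T, Eomes, Mixl1, Gsc and Hhex reached 1 CPM in at least 1 library, and the other 5 had at most 3 counts in either. Of the 5 that reached 1 CPM, Gsc, T and Mixl1 were at least 2-fold lower in cEpiSC, Eomes and Hhex were within 2-fold, and 0 were higher. Over all 13243 genes at that level, 9.25% were at least 2-fold lower and 13.6% at least 2-fold higher. Gsc, T and Mixl1 passed the 1 CPM limit through mESC alone and so could only be counted as lower or within, and the count of 3 does not measure how the 10 genes behaved as a group. Among the 5074 genes whose higher library stood at 1 to 20 CPM, the range in which the 5 genes lie, 11.7% were lower and 26.8% higher. The median log2 ratio of cEpiSC over mESC was -1.88 over the 5 genes, beside -0.02 over all genes tested, and is limited by the filter in the same way. Over all 10 genes it was -0.60, beside 0 over all genes listed. That -0.60 is the value of genes with 1 and 0 counts, such as Foxa2, and so measures no difference. Together the 10 genes held 947 counts in mESC and 532 in cEpiSC.

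**Figure D1:**
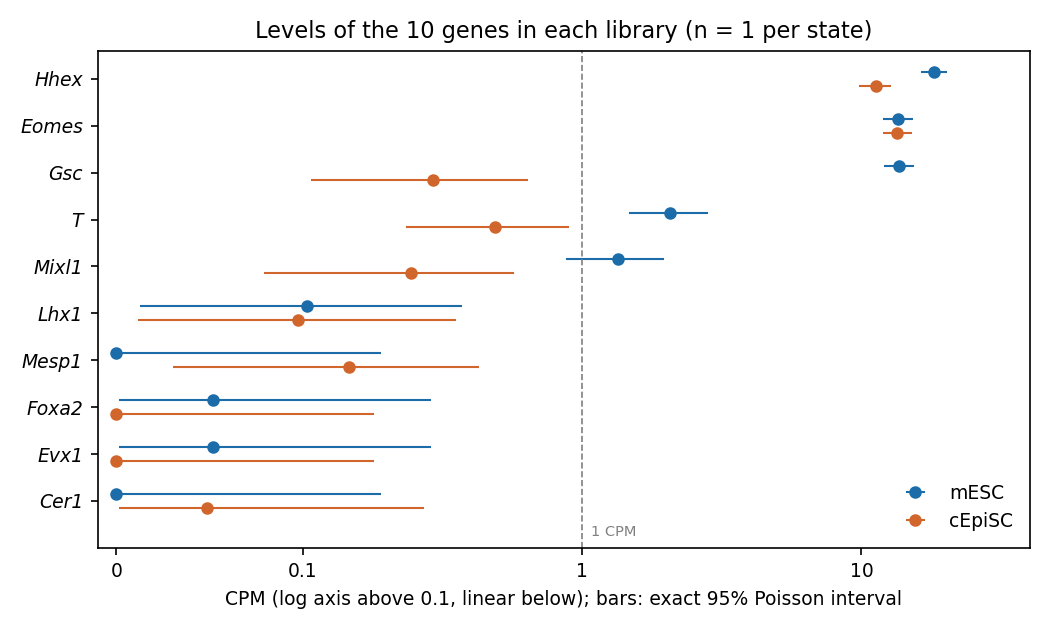
CPM of each of the 10 genes (vertical) in the mESC and cEpiSC libraries, on an axis that is logarithmic above 0.1 and linear below, where bars are exact 95% Poisson intervals of 1 library. Gsc, T and Mixl1 have separate intervals with mESC higher, the intervals of Eomes nearly coincide at 13.5 and 13.4 CPM, and the lowest 5 genes overlap near 0.

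Gsc, which encodes the homeobox repressor goosecoid of the anterior streak and organizer, showed the largest difference of the 10. It lies on the minus strand of chromosome 12 (Entrez 14836, 104471209 to 104473236 in GRCm38.p6). Gsc had 264 counts in mESC, or 13.6 CPM, and 6 counts in cEpiSC, or 0.293 CPM. Without a prior count, the cEpiSC level was 46.5-fold lower by CPM. The log2 ratio, which includes a prior count of 2, was -5.13 (95% interval -7.00 to -4.40). The interval covers counting error only, as do all intervals below. Gsc held rank 18 from the lowest ratio among 13243 genes, of which 0.831% were at least 10-fold lower. Its level per length went from 22.6 to 0.47 TPM, that is, from percentile 67.3 to percentile 25.5 of the listed genes.

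T, the founding T-box factor needed for posterior mesoderm and notochord, was low in both libraries. It lies on the plus strand of chromosome 17 (Entrez 20997, 8434423 to 8442496). T had 40 counts in mESC, or 2.07 CPM, and 10 in cEpiSC, or 0.489 CPM. Its CPM was 4.23-fold lower in cEpiSC, and the log2 ratio, which includes the prior count, was -1.88 (-3.25 to -1.06). Mixl1, which encodes a paired-type homeobox factor of the streak that acts in endoderm and mesoderm formation, was lower still. It lies on the minus strand of chromosome 1 (Entrez 27217, 180693043 to 180697034), and had 26 counts in mESC, or 1.34 CPM, against 5 in cEpiSC, or 0.244 CPM. The CPM of Mixl1 was 5.50-fold lower, and its log2 ratio, which includes the prior count, was -2.07 (-4.20 to -1.06). For Gsc, T and Mixl1 the counting interval lay wholly beyond 2-fold, as it did for 6.34% of all genes tested in this direction and for 9.15% in the other. Gsc, T and Mixl1 passed 1 CPM through mESC alone, so each could lie beyond 2-fold in this direction only. The upper limits of T and Mixl1, both -1.06, were close to the 2-fold line, and intervals were not recomputed in other settings. T and Mixl1 rest on few counts, and with the deposited TPM and a pseudocount of 1 the log2 ratio was -1.01 for T and -0.78 for Mixl1, so that Mixl1 was then within 2-fold. With FPKM both were within 2-fold, at -0.68 and -0.50.

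Eomes, a T-box factor that specifies definitive endoderm and early mesoderm, stood at the same level in both libraries. It lies on the plus strand of chromosome 9 (Entrez 13813, 118478186 to 118486132). Eomes had 261 counts in mESC and 275 in cEpiSC, or 13.5 and 13.4 CPM, a log2 ratio of -0.01 (-0.26 to 0.24). The intervals of its levels overlapped almost fully, and the interval of its ratio lay wholly within 2-fold. An annotated antisense gene, Gm33460, overlaps Eomes in GENCODE vM21, whereas the RefSeq table of GRCm38.p6 places it 0.112 kb beyond Eomes. Whether counting used strand is not given, so reads of Gm33460 could be mixed with those of Eomes.

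Hhex, which encodes a homeobox repressor of anterior endoderm and of primitive endoderm, was the most abundant of the 10 by counts in mESC and stood below Eomes in cEpiSC. It lies on the plus strand of chromosome 19 (Entrez 15242, 37434841 to 37440731). Hhex had 352 counts in mESC, or 18.2 CPM, and 230 in cEpiSC, or 11.2 CPM. It was 1.62-fold lower in cEpiSC, and its log2 ratio of -0.69 (-0.94 to -0.45) lay short of 2-fold but apart from 0. Among the counts of the 10 genes, Hhex and Eomes made up 37.2% and 27.6% in mESC and 43.2% and 51.7% in cEpiSC, while Gsc went from 27.9% to 1.13%.

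**Figure D2:**
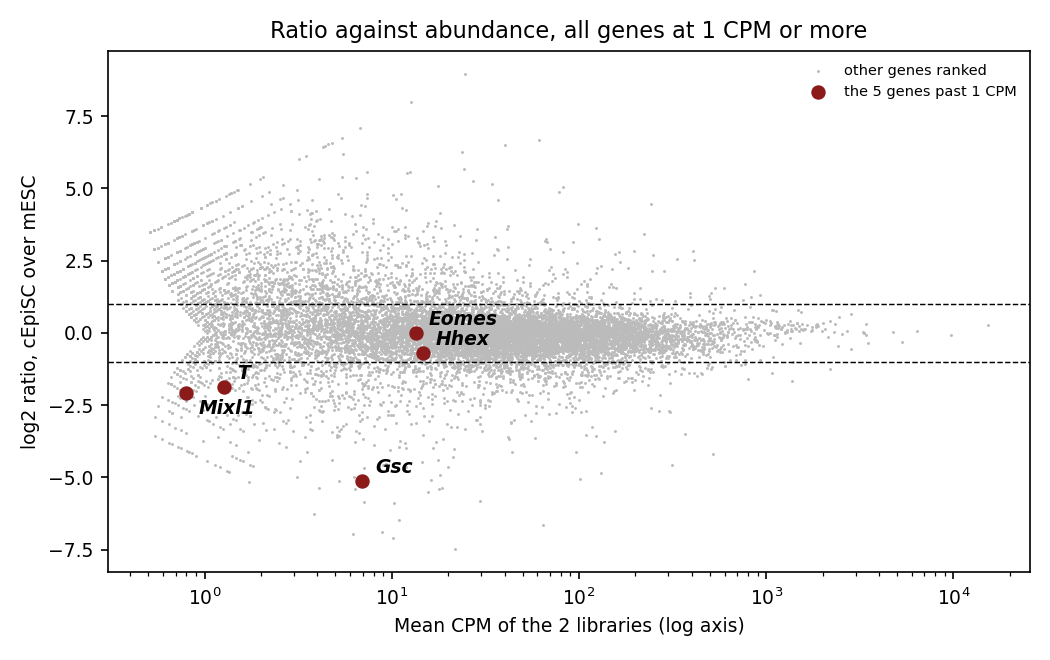
Each point is a gene at 1 CPM or more in either library, with its mean CPM of both libraries on a logarithmic horizontal axis and its log2 ratio of cEpiSC over mESC on the vertical axis, and dashed lines mark 2-fold. Gsc stands at -5.13, far below most genes of like abundance, T and Mixl1 lie below the lower line at about 1 CPM, and Eomes and Hhex lie between the lines.

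The remaining 5 genes were at or under the floor of 3 counts in both libraries, and no fold is given for them. Mesp1, a bHLH factor of cardiac and cranial mesoderm (Entrez 17292), had 0 counts in mESC and 3 in cEpiSC. Lhx1, a LIM homeobox factor of the anterior streak and node (Entrez 16869), had 2 counts in each. Foxa2, the forkhead factor of endoderm, node and notochord (Entrez 15376), and Evx1, a homeobox factor of the posterior streak (Entrez 14028), each had 1 count in mESC and 0 in cEpiSC. Cer1, which encodes Cerberus-like, a secreted antagonist of Nodal and BMP (Entrez 12622), had 0 and 1. These genes lie on chromosomes 7 (79792241 to 79793590), 11 (84517975 to 84525534), 2 (148042877 to 148046969), 6 (52313498 to 52318389) and 4 (82881751 to 82885151), in that order. A difference between the states was not detectable for them at this depth, and these counts do not show whether a few cells expressed them. Evx1 is overlapped by the antisense gene Evx1os.

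Per length, the order in mESC was Gsc (22.6 TPM), Hhex (19.4), Eomes (6.75), T (1.88) and Mixl1 (1.05). The counting intervals of Gsc (20.0 to 25.5 TPM) and Hhex (17.5 to 21.6) overlapped, as did those of T (1.34 to 2.56) and Mixl1 (0.69 to 1.54), while that of Eomes (5.96 to 7.62) was apart from both pairs. In cEpiSC the order was Hhex (11.6 TPM), Eomes (6.60), Gsc (0.47), T (0.43), Mesp1 (0.26) and Mixl1 (0.19). Only Hhex (10.2 to 13.2) and Eomes (5.84 to 7.43) stood apart from each other and from the rest, since the intervals of the following 4 overlapped. Gsc therefore moved from the upper pair, which it shared with Hhex, to a group at the edge of detection. The median of all genes with a TPM above 0 was 11.8 in mESC and 9.69 in cEpiSC, so that Gsc and Hhex in mESC, and Hhex in cEpiSC, lay above it.

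Close relatives of the 10 genes differed in both directions. Of 22 listed relatives found in the table, 12 were tested, of which 4 were higher in cEpiSC and 5 lower, and the median log2 ratio was -0.16. Over all genes tested, 13.6% were higher and 9.25% lower. Tbx1 and Foxa1 reached 1 CPM in cEpiSC alone, and Tbx5, Tbx15, Tbx18 and Foxa3 in mESC alone, which fixed the direction in which each could be counted. Mesp2, the neighbour of Mesp1 at a distance of 17.1 kb and a factor of somite segmentation, went from 27 to 133 counts (1.40 to 6.50 CPM, log2 ratio 2.14, 1.61 to 2.87), where Mesp1 had 0 and 3. Of the Foxa factors, Foxa1 went from 5 to 47 counts (log2 ratio 2.74, 1.83 to 4.84) and Foxa3 from 23 to 11, beside 1 and 0 for Foxa2. Dand5, the relative of Cer1 that antagonizes Nodal at the node, had 61 and 79 counts, within 2-fold. Gsc2 had 3 and 1 counts, Lhx5 had 1 and 6, and Hlx had 2 and 2. Relatives outside the naming rule were named after their values were seen.

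T and Eomes stood among 14 listed T-box genes, of which 10 were tested: 5 were lower, 2 higher and 3 within 2-fold. The shares over all genes tested were 9.25% lower and 13.6% higher, and the limit of the filter given above applies here too. Tbx3, a T-box factor of naive pluripotency, was by far the most abundant in mESC and stood at 111 and 10.2 TPM (log2 ratio of CPM -3.39, -3.53 to -3.27). Tbx15 went from 402 to 17 counts (-4.49, -5.44 to -3.95) and Tbx18 from 61 to 7 (-2.88, -4.58 to -2.07), both known from mesodermal organs. Tbx5, a heart and forelimb factor, was listed with 35 counts in mESC but 0 in cEpiSC, which is at least 12.3-fold lower against the floor of 3 counts per library. In the other direction Tbx4, a hindlimb factor, went from 24 to 156 counts (2.53, 1.99 to 3.30) and Tbx1 from 6 to 33 (2.06, 1.11 to 3.92). In cEpiSC, Tbx3 and Eomes were the most abundant of the 14, at 10.2 and 6.60 TPM. Tbx6, which follows T in presomitic mesoderm, had 11 counts in each library.

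**Figure D3:**
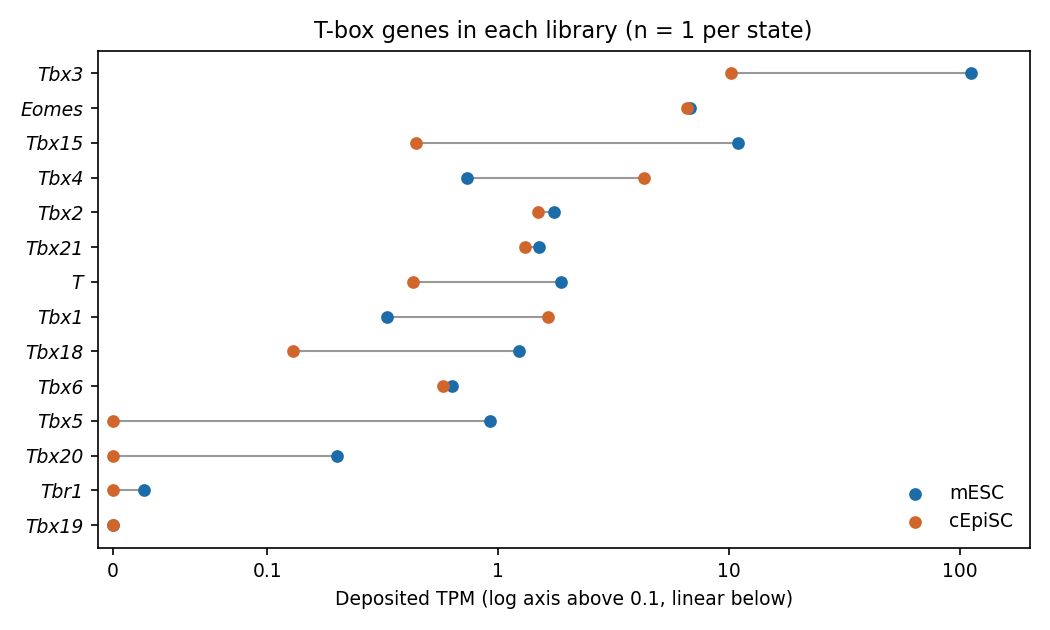
Deposited TPM of 14 T-box genes in the mESC and cEpiSC libraries, joined by a line for each gene, on an axis that is logarithmic above 0.1 and linear below. Eomes stays at 6.75 and 6.60 TPM between genes that move in both directions, from Tbx3 (111 to 10.2) to Tbx4 (0.73 to 4.27).

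Upstream of the streak genes, components of the Nodal, Wnt, BMP and FGF pathways ranged widely in level and differed in both directions. Of 26 genes for ligands, receptors, antagonists and proteases, 21 were tested. Of these, 6 were higher in cEpiSC and 4 lower, leaving 11 within 2-fold, and the median log2 ratio was 0.46. The shares over all genes tested were 13.6% higher and 9.25% lower. Gdf1, Wnt3 and Wnt8a reached 1 CPM in cEpiSC alone and Wnt3a in mESC alone, which fixed the direction in which each could be counted. Wnt8a, a streak Wnt ligand, had 61 counts in cEpiSC but 0 in mESC, which is at least 19.2-fold higher against that floor, and Wnt3, needed to form the streak, went from 12 to 55 (log2 ratio 1.95, 1.20 to 3.15). Wnt3a, a ligand of the later streak and tail bud, was lower at 32 and 5 counts (-2.35, -4.48 to -1.39). The Wnt receptor gene Fzd7 went from 20.6 to 144 CPM (2.80, 2.65 to 2.96). The Nodal antagonist gene Lefty1, some of whose reads are shared, went from 13.4 to 184 CPM, and the co-receptor gene Tdgf1 was also higher (1.38). Gdf1, a partner ligand of Nodal, had 1 and 106 counts (5.12, 4.14 to 11.96), also with partly shared reads. Nodal itself was within 2-fold, at 2073 and 3655 counts. The 3 other lower genes were Sfrp1 (-2.03), Pcsk6 (-1.31) and Acvr1b (-1.16). Wnt3, Wnt3a, Tdgf1, Nodal and these 3 were named after their values were seen.

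Among 19 transcription factors and cofactors linked to these signals, targets such as Sp5 and Cdx1 included, 17 were tested. They gave 4 higher and 3 lower genes and a median of -0.18, where 13.6% of all genes tested were higher and 9.25% lower. Lef1 reached 1 CPM in cEpiSC alone, and Sp5 and Cdx1 in mESC alone, which fixed the direction in which each could be counted. Smad2 had 1308 and 1344 counts and Foxh1 had 1891 and 2480, both within 2-fold. The higher genes included Lef1 (9 and 294 counts), Otx2 and Zic2. Sp5 and Cdx1, known targets of Wnt and beta-catenin, had ratios below that of Gsc. Sp5 went from 272 to 3 counts (-5.84, -8.87 to -5.02) and Cdx1 from 1128 to 19 (-5.83, -6.71 to -5.32). Tcf7l2 (-1.22) was the third lower gene. Smad2, Foxh1, Zic2, Otx2 and Tcf7l2 were named after their values were seen.

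Genes downstream of the streak gave no common direction. Of 22 genes of nascent mesoderm, 11 were tested: 5 were higher and 3 lower, and the median was 0.46. Among all genes tested, 13.6% were higher and 9.25% lower. Dll1, Dll3 and Hand1 reached 1 CPM in cEpiSC alone, and Kdr, Gata2 and Fgf10 in mESC alone, which fixed the direction in which each could be counted. Dll1, a Notch ligand gene of paraxial mesoderm, had 130 counts in cEpiSC but 0 in mESC, which is at least 41.0-fold higher. Tcf15, a bHLH factor of paraxial mesoderm also known from the primed epiblast, went from 4.29 to 53.0 CPM (3.60, 3.30 to 3.97). Gata2, a blood and trophoblast factor, had 342 and 1 counts (-6.90, -13.81 to -6.01), and Fgf10 had 149 and 0, at least 52.5-fold lower. Msgn1 and Aplnr had 0 counts in both libraries. The Vegf receptor gene Kdr, named after its value was seen, was lower at 42 and 5 counts (-2.72).

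Only 4 of 12 genes of the node and axial mesoderm were tested, with 2 higher and none lower. The higher genes included Foxj1, a factor of motile cilia (14 to 414 counts, log2 ratio 4.62, 4.04 to 5.69). Noto, Shh and Foxd4 had 0 counts in both libraries. Of 14 genes of definitive endoderm 13 were tested, giving 4 higher and 3 lower genes and a median of 0.46. The higher genes were Foxa1, Epcam (43.2 to 218 CPM), Trh (63.6 to 304 CPM) and Gpc3 (32.3 to 104 CPM), the second and last of which are also expressed in other epithelia and tissues. Sox17, an endoderm factor, had 16 and 24 counts, and Gata6 had 109 and 153. The 3 lower genes were Cxcr4 (-1.30), and Gata4 and Foxa3 at the 2-fold limit (both -1.01), and 1 or none of the 3 was lower in 5 of the 8 other settings. Shares over all genes tested were 13.6% higher and 9.25% lower. Foxj1, Foxa1 and Sox17 reached 1 CPM in cEpiSC alone, and Foxa3 and Cxcr4 in mESC alone, which fixed the direction in which each could be counted.

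**Figure D4:**
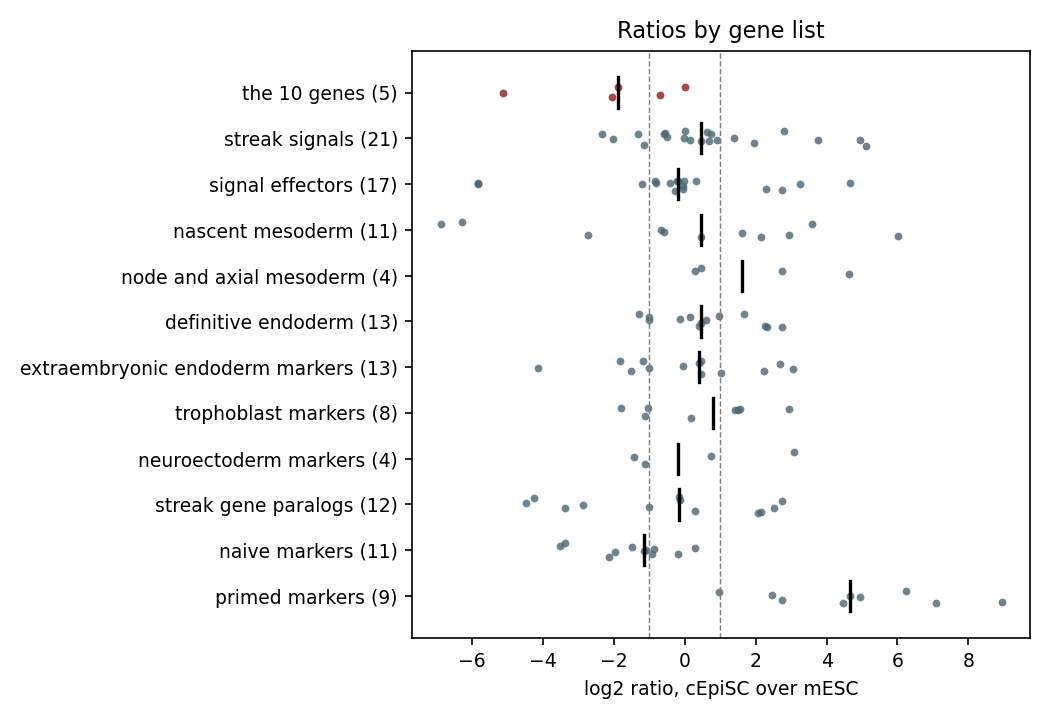
log2 ratio of cEpiSC over mESC (horizontal) for genes at 1 CPM or more in each list (vertical, number tested in brackets), where each point is a gene, the black bar is the median and dashed lines mark 2-fold. The 5 tested genes of the 10 run from -5.13 to -0.01, while the lists of signals, mesoderm and endoderm spread to both sides and the primed markers lie at a median of 4.68.

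Several of the 10 genes also mark other cells, so the markers of those cells were summed. Each sum follows its few most abundant genes and does not give the direction of the set. The 20 markers of extraembryonic endoderm, where Hhex, Foxa2, Lhx1, Cer1, Gsc and Eomes can also be expressed, summed to 750 CPM in mESC and 466 CPM in cEpiSC. Of these, 13 were tested, with 4 higher, 5 lower and 4 within 2-fold. The most abundant was the matrix gene Sparc, at 391 and 173 CPM (-1.18, -1.24 to -1.12). Of the laminin genes, Lama1 went from 181 to 10.3 CPM (-4.13, -4.35 to -3.94) and Lamb1 from 75.6 to 153 CPM (1.02, 0.93 to 1.11). Sparc and Lama1 made up most of the sum in mESC. The collagen genes Col4a1 and Col4a2 were higher in cEpiSC, at log2 ratios of 2.70 and 2.23. Of the endocytic genes of visceral endoderm, Cubn went from 5 to 59 counts (3.06, 2.18 to 5.15) and Dab2 from 1157 to 340 (-1.84, -2.03 to -1.67), and Amn had 6 and 15. Of its secreted proteins, Ttr had 0 counts in both libraries, Afp 0 and 2, and Apob 0 and 4. The 10 trophoblast markers summed to 211 and 125 CPM, with 4 higher, 3 lower and 1 within 2-fold. Hand1 (3 and 38 counts, 2.94), Gata3 (18 and 60, 1.56), Krt18 (260 and 775, 1.49) and Ascl2 (27 and 80, 1.42) were higher. Tead4 (1467 and 445, -1.80), Tfap2c (1516 and 737, -1.12) and Krt8 (757 and 389, -1.04) were lower and made up most of that sum. Cdx2 had 5 and 0 counts and Elf5 had 3 and 1. The 10 neuroectoderm markers summed to 99.4 and 46.1 CPM, with 1 higher of 4 tested, Pax6 (2 and 33 counts, partly shared). The 2 lower genes, Nes (-1.12) and Tubb3 (-1.42), made up most of that sum. Beside these counts, 13.6% of all genes tested were higher and 9.25% lower. Cubn, Sox17, Hand1, Gata3 and Pax6 reached 1 CPM in cEpiSC alone, and Fst in mESC alone, which fixed the direction in which each could be counted. In the paragraphs on mesoderm, node, endoderm and other cells, genes outside the naming rule were named after their values were seen. The part of such cells in the levels of Gsc, Hhex and Eomes was not tested.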

How the data were processed

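RNA was sequenced from 2 libraries, 1 per state. Per the labels' protocols, beads carrying oligo(dT) captured the mRNA and second strands were made with dUTP. RSEM 1.3.1, DESeq2 1.34.0, HISAT2, Bowtie2 and the build GRCm38.p6 are listed in the submitters' processing notes, but their roles, the annotation and the filters were not given in the sources used here. Per the file headers, the authors deposited read counts (estimated counts, unscaled), TPM (per kilobase, scaled to the same sum) and FPKM (per kilobase and fragment total). No column belonged to another sample (0).

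After rounding, edgeR 4.0.16 (R 4.3.3) gave TMM factors of 0.975 (mESC) and 1.03 (cEpiSC). Genes that reached 1 CPM in a library were tested only in the sense of being ranked by size: 2-fold or more, with a prior count of 2 in the log2 ratio. Folds are ratios of CPM without the prior count. Ratio intervals are exact conditional (Clopper-Pearson) 95% intervals and level intervals exact Poisson ones, both without the prior count. Because PCR copies cannot be told from separate molecules, these intervals and the floors reflect counting error alone. The ratio script was tested on simulated data.

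The 10 genes and 11 comparison lists were chosen with earlier results of these data known. Named genes are the 10, and in each list up to 4 tested genes with the largest absolute log2 ratio at 2-fold or more, or the 2 most abundant where none was. All other list genes named were added after values were seen. The values of 2 list genes are not reported here. Neighbours come from the RefSeq table of GRCm38.p6 (10 of 10 matched), strand and overlaps from GENCODE vM21. Alternatives were DESeq2 1.42.0 size factors, library totals, no filter, 5 CPM, prior counts of 0.5 and 5, and TPM or FPKM with a pseudocount of 1. Remaining computation used Python 3.11.15.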

Additional observations from a re-analysis of the deposited data

How the results depend on the processing

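The differences of Gsc, T and Mixl1 kept their direction in each of the settings run in which they were tested, and the count of 3 lower genes was the same with DESeq2 size factors, library totals, no filter and prior counts of 0.5 or 5. At a filter of 5 CPM the count was 1, since T and Mixl1 were not tested. It was 2 with TPM and 1 with FPKM, where a pseudocount of 1 shrinks the ratios of genes this low. Gsc ranged from -5.42 with a prior count of 0.5 to -3.38 with FPKM. Without a filter 1 of the 10 genes was counted as higher, Mesp1, on 0 and 3 counts. The median log2 ratio of the tested genes was -0.60 without a filter, -0.69 at 5 CPM, -0.78 with TPM and -0.56 with FPKM. The ratios of Eomes and Hhex stayed within their counting intervals in all 8 alternatives, although that of Eomes changed sign around 0, to 0.07 with library totals and with FPKM. Of 264 list values under the alternatives, 47 moved, by over 1.5 times for a count or over 0.25 for a median. No paired analysis was possible because each state had 1 library. Depth limits the 5 genes with at most 3 counts, for which neither presence nor a difference can be judged.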

Other observations

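The genes beside the 5 tested members differed in both directions. Lin9, 2.36 kb from Mixl1, had 19.6 CPM (mESC) and 23.3 CPM (cEpiSC) (log2 ratio 0.25, 0.05 to 0.45), and Acbd3 on the other side at 57.2 and 36.1 CPM (-0.66, -0.80 to -0.53). The nearest listed neighbours of Gsc were Dicer1 at 215 kb, with 131 and 133 CPM, and Serpina3n at 56.9 kb, with 1 and 6 counts. Beside T, the gene T2 at 11.7 kb had 3 counts in each library, and Pde10a at 82.7 kb went from 14 to 36 counts (1.17, 0.36 to 2.29). Around Hhex, Kif11 at 13.0 kb was level (165 and 169 CPM) and Exoc6 at 96.0 kb stood at 27.3 and 36.1 CPM. Golga4, 20.1 kb from Eomes, went from 73.4 to 40.3 CPM (-0.86, -0.99 to -0.74), while Eomes itself did not differ beyond counting error, and Cmc1 at 328 kb on its other side had 54 and 111 counts (0.93, 0.48 to 1.46).

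The genes most like Hhex in level over the 2 libraries, by Euclidean distance in log2(CPM + 1), were Padi3 (distance 0.047), Mfsd11 (0.054) and Lpp (0.054). Those most like Eomes were Gm6712 (0.0071), Mgat3 (0.011) and Setd4 (0.014). Within a distance of 0.25 there were 104 genes around Hhex and 200 around Eomes, so likeness over 2 libraries singles out no gene.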
